A study of Mus musculus with 9 samples.

Results

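The miRNAs described here are those of the imprinted Dlk1-Dio3 domain on mouse chromosome 12, followed across 3 adipose depots of mice fed a high fat diet (HFD). They were taken from the table of mature miRNAs by a list of 50 miR numbers known to lie in the domain, with any letter and either arm. No measured value enters this rule, though the list was made with earlier results of these data known. This gave 104 of the 1251 miRNAs of the table, and each of the 50 numbers was found. By the names of their precursors, 99 of the 104 were placed on chromosome 12. The exception in position was miR-496b, which the annotation put on chromosome 19 and which was at the lowest value of the table in every library. The hairpins of miR-544 and miR-666 were not placed.

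Small RNA was sequenced from interscapular brown adipose tissue (BAT), inguinal subcutaneous adipose tissue (SAT) and epididymal visceral adipose tissue (VAT) of male C57BL/6J mice, with 3 libraries per depot. All 9 libraries came from animals on the HFD, with 45% of energy from fat, 20% from protein and 35% from carbohydrate, given for 11 weeks from an age of 5 to 6 weeks, so the animals were 16 to 17 weeks old at the end. No genotype was altered and no other diet was analysed here, so each comparison is one between depots under the HFD. The libraries are named by depot and by the number in their titles, BAT 12, 15 and 20, SAT 14, 19 and 20, and VAT 14, 17 and 20, and values are given in this order throughout. The sources used here do not say whether a number marks a mouse, and p-values measure the spread between these libraries. The depots were whole tissue, in which fewer cells of a type and less RNA per cell cannot be told apart.

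The domain carries genes that are expressed from one parental allele. The paternal allele gives the protein-coding genes Dlk1, a transmembrane protein that holds back adipocyte differentiation, Rtl1, a retrotransposon-derived gene needed in the placenta, and Dio3, an enzyme that inactivates thyroid hormone. The maternal allele gives the non-coding RNAs Meg3, anti-Rtl1, Rian and Mirg, which host small nucleolar RNAs and one of the densest groups of miRNA genes in mammals. These miRNAs are known for high expression in the brain, in the embryo and in mesenchymal cells, and those antisense to Rtl1 can direct cleavage of its transcript. A miRNA is cut from a hairpin whose 5p and 3p arms can each give a mature strand, and bases 2 to 8 of that strand, the seed, do most of the pairing with targets.

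The mature sequences of the members on which the results turn are given 5′ to 3′ from the RefSeq annotation of GRCm38.p6, with the seed in capitals. The first set is that of the abundant members and their neighbours antisense to Rtl1, which lie within a short stretch and yet differed among themselves across depots.
miR-433-3p: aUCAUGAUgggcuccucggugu
miR-127-3p: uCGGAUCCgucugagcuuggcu
miR-434-5p: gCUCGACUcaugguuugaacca
miR-434-3p: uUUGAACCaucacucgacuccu
miR-433-3p lies at chr12:109591781-109591802, miR-127-3p at chr12:109592888-109592909, miR-434-5p at chr12:109594528-109594549 and miR-434-3p at chr12:109594565-109594586, all on the plus strand and antisense to an exon of Rtl1. The hairpin of miR-434, at chr12:109594506-109594599 on the plus strand, is shown because its arms had unlike levels across depots, and here the capitals mark the 5p and then the 3p arm.
Mir434: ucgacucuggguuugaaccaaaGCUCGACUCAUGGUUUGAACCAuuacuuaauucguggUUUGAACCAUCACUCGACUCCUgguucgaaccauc

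The second set holds members from other places in the domain that rose or fell between depots.
miR-673-5p: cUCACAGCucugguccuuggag
miR-337-5p: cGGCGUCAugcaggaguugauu
miR-341-3p: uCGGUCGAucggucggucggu
miR-411-5p: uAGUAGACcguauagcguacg
miR-300-3p: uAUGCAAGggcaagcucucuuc
miR-381-3p: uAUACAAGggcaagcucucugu
miR-668-3p: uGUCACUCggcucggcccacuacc
In the order shown they lie at chr12:109572004-109572025, chr12:109585818-109585839, chr12:109611556-109611576, chr12:109710190-109710210, chr12:109724363-109724384, chr12:109726870-109726891 and chr12:109734774-109734797, all on the plus strand. The hairpin of miR-341 lies in an intron of Rian and that of miR-668 reaches an exon of Mirg, while the annotation places no other gene over miR-673, miR-337, miR-411, miR-300 or miR-381. miR-300-3p and miR-381-3p have like sequences with different seeds. Of the 104 members 100 matched a mature sequence, and these carried 92 distinct seeds. The seed AUGUAAC was shared by miR-379-3p and miR-411-3p, and the 34 tested members with a sequence carried 33 distinct seeds.

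Most of the domain's miRNAs were not seen above the lowest value. The deposited values are log2 values with a lowest value of 3.32, the log2 of 10, which a miRNA with no reads would also carry. In every library 55 of the 104 members were at this value, 14 were above it in 1 or 2 libraries, and 35 were above it in 3 or more libraries and were tested. The 35 were 33.7% of the members, and 26.9% of the other miRNAs of the table were tested. As 2 pairs of the tested members had identical values, miR-299a and miR-299b on opposite strands of the same place, the 35 represent 33 distinct measurements. Only 10 members were above the lowest value in all 9 libraries. Many numbers that are abundant in brain, such as the miR-376 members, were at or almost at the lowest value here, where the highest miR-376 value was 3.38 for miR-376b-5p in VAT 14 (chosen after its value was seen).

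The number of members above the lowest value was 20, 20 and 17 across BAT, 27, 16 and 20 across SAT, and 48, 38 and 34 across VAT. All 3 VAT libraries thus lay above all BAT and SAT libraries. The whole table moved in the same way, with 265 ± 9.29 miRNAs above the lowest value for BAT, 264 ± 22.6 for SAT and 334.7 ± 13.2 for VAT (SD, n = 3 each). The smallest value above the lowest also differed, and was 4.25 to 4.91 in the BAT libraries, 4.13 to 5.20 in the SAT libraries and 3.36 to 3.62 in the VAT libraries. VAT libraries therefore showed values in a range in which the BAT and SAT libraries showed few or none, and the counts were made again after raising all lower values to 5.20 in every library, an alternative chosen after seeing the data. Read counts are not part of the table, and how deeply a library was sequenced is not known.

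**Figure D1:**
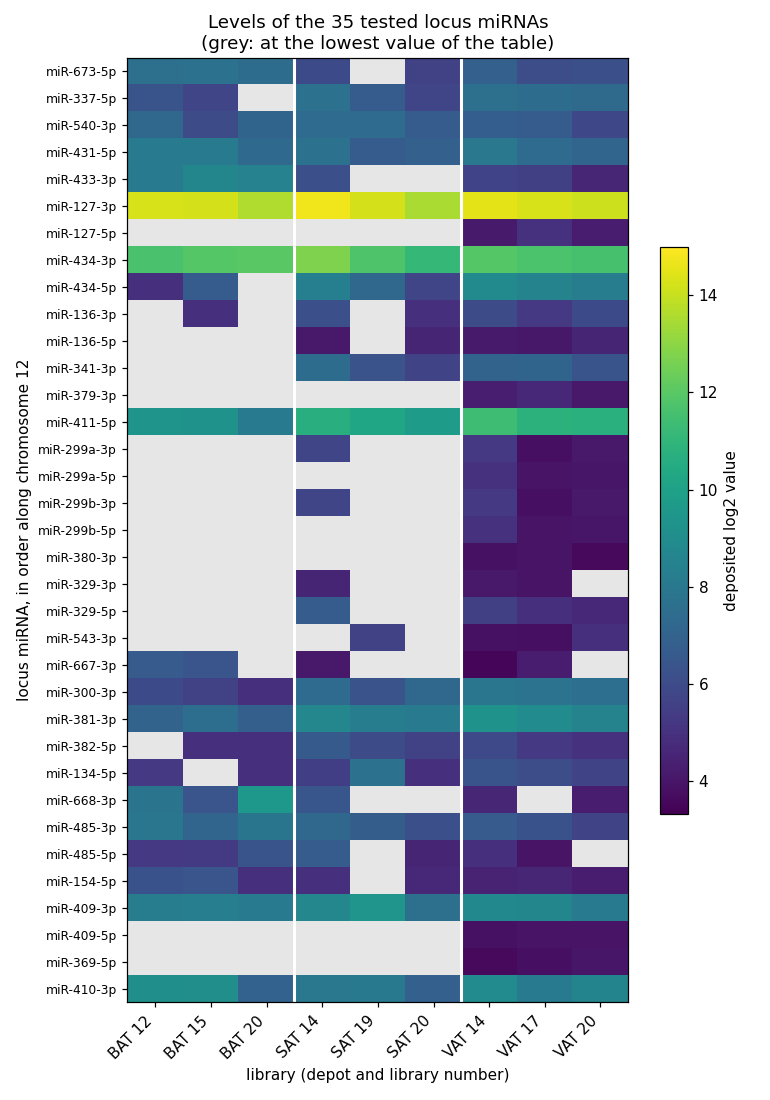
Heat map of the deposited log2 values of the 35 tested members (vertical axis, in chromosome order) in the 9 libraries (horizontal axis), with grey for the lowest value of the table. miR-127-3p, miR-434-3p and miR-411-5p are bright in every library, and the grey cells are mostly in the BAT and SAT libraries.

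A single miRNA, miR-127-3p, made up most of the signal of the domain. After undoing the log2, the 104 members together held 0.809% to 1.11% of the sum of all values in BAT, 0.662% to 1.62% for SAT and 1.03% to 1.40% for VAT. miR-127-3p alone was 65.2% to 75.6% of the members' sum and ranked 19 to 34 among all miRNAs of a library. The log2 of the members' sum was 14.61 ± 0.25 for BAT, 14.69 ± 0.62 for SAT and 14.85 ± 0.22 for VAT (SD, n = 3 each), so that the ranges of the depots overlapped.

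miR-127-3p was 14.31, 14.24 and 13.63 across BAT, 14.75, 14.24 and 13.51 across SAT, and 14.52, 14.31 and 14.11 across VAT. These ranges overlapped, and the log2 difference was 0.25 for VAT over BAT (SE 0.28), 0.11 for SAT over BAT (SE 0.39) and 0.15 for VAT over SAT (SE 0.35). The adjusted p-values were 0.440, 0.872 and 0.811 (limma's moderated test, Benjamini-Hochberg adjustment over all 343 tested miRNAs, the test used throughout). miR-434-3p, the next in level, was 11.65, 11.94 and 12.004 across BAT, 12.74, 11.81 and 11.10 across SAT and 11.94, 11.70 and 11.60 across VAT. Its ranges overlapped as well, with a log2 difference of -0.12 for VAT over BAT (SE 0.23) and an adjusted p of 0.651.

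Of the other members with a high mean level, miR-409-3p, miR-410-3p and miR-431-5p also overlapped between the depots. miR-409-3p was 8.25, 8.34 and 8.09 across BAT, 8.74, 9.39 and 7.64 across SAT and 8.79, 8.67 and 8.12 across VAT. miR-410-3p was 9.12, 9.10 and 7.0015 across BAT, 7.99, 8.04 and 6.89 across SAT and 8.94, 8.08 and 8.60 across VAT. miR-431-5p was 8.18, 8.12 and 7.34 across BAT, 7.73, 6.71 and 6.89 across SAT and 7.999, 7.41 and 7.12 across VAT. The adjusted p for VAT over BAT was 0.333, 0.865 and 0.384 in this order, so that 5 of the 8 members with the highest mean level did not pass the test in VAT/BAT. The remaining members of these 8 are miR-411-5p, miR-381-3p and miR-434-5p, described next.

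VAT and BAT differed in the level of 21 of the 35 tested members at an adjusted p under 0.05 (66.2% of all tested miRNAs passed). In VAT 15 members were higher (42.9%, against 39.4% of all tested miRNAs) and 6 were lower (17.1%, against 26.8%). These shares are close to those of the table as a whole. Some of the 15 passed the filter through VAT values alone, and others, seen in SAT too, had no BAT value above the lowest. This fixed their direction against BAT, so nothing further is read from the shares. The median log2 difference was 0.85 over the 35 members and 0.40 over all tested miRNAs, and the median size was 1.07 over the members and 1.62 over all. The members' median includes those of fixed direction, so nothing is read from it either. After quantile normalization the median over all tested miRNAs was 0.13 and that over the members 0.30, and 9 members were higher and 6 lower, against a split of 15 and 6 on the deposited values. Of all tested miRNAs, 114 were then higher and 93 lower. With low values raised to 5.20 in every library, 26 members could be tested, of which 7 were higher and 4 lower, and all 11 were among the 21, while 174 of all 318 tested miRNAs passed. The median log2 difference was then 0.06 over these members and 0.0 over all. With no filter on low values 8 of the 104 members passed, and 78 of all 1251 miRNAs passed as higher and 50 as lower.

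Among the members antisense to Rtl1, neighbours went in opposite directions. miR-433-3p was 8.12, 8.70 and 8.52 across BAT, 6.16, 3.32 and 3.32 across SAT and 5.69, 5.53 and 4.59 across VAT. Every BAT library was above every SAT and VAT library, and the log2 difference of VAT from BAT was -3.18 (SE 0.36, adjusted p = 0.000596 by limma). miR-433-3p passed the test in VAT/BAT under each of the 17 alternatives run, with an adjusted p of at most 0.0188. miR-434-5p was 4.92, 6.71 and 3.32 across BAT, 8.37, 7.27 and 5.77 across SAT and 8.88, 8.55 and 8.27 across VAT. All VAT libraries were above all BAT libraries, while SAT overlapped BAT, and the log2 difference of VAT from BAT was 3.58 (SE 0.82, adjusted p = 0.00976 by limma), or 3.42 without VAT 14 with an adjusted p of 0.0515. It was 2.75 without BAT 20 and 4.45 without BAT 15, and passed both times. The hairpins of miR-433 and miR-127 start 1131 bases apart and those of miR-127 and miR-434 start 1660 bases apart, so that a member lower in VAT than in BAT, one whose depots overlapped and one higher in VAT lie next to each other.

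The difference in log2 value between miR-433-3p and miR-127-3p of a library averaged -5.61 ± 0.54 for BAT, -9.90 ± 1.20 for SAT and -9.04 ± 0.42 for VAT (SD, n = 3 each). These neighbours were compared after their values were seen, and no test was made. miR-136-3p and miR-136-5p, from the last hairpin antisense to Rtl1 and also chosen after their values were seen, were higher in VAT than in BAT (adjusted p = 0.0181 and 0.0111 by limma), the first by 1.89 on the log2 scale (SE 0.51). miR-136-3p was 3.32, 4.92 and 3.32 across BAT and 6.04, 5.24 and 5.94 across VAT. Its call was lost under 7 of the 17 alternatives, among them without BAT 12, VAT 14 or VAT 20 (adjusted p 0.0567 to 0.0763). miR-136-5p was at the lowest value in all BAT libraries and at 4.16, 4.08 and 4.51 across VAT, which is under the smallest value above the lowest in BAT 20, and no fold is given. In all, 8 of the 11 members antisense to Rtl1 were tested, with 4 higher and 1 lower in VAT than in BAT, where 39.4% and 26.8% of all tested miRNAs were called in these directions. Of those higher, miR-127-5p and miR-136-5p had no BAT value above the lowest and could not have come out lower.

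**Figure D2:**
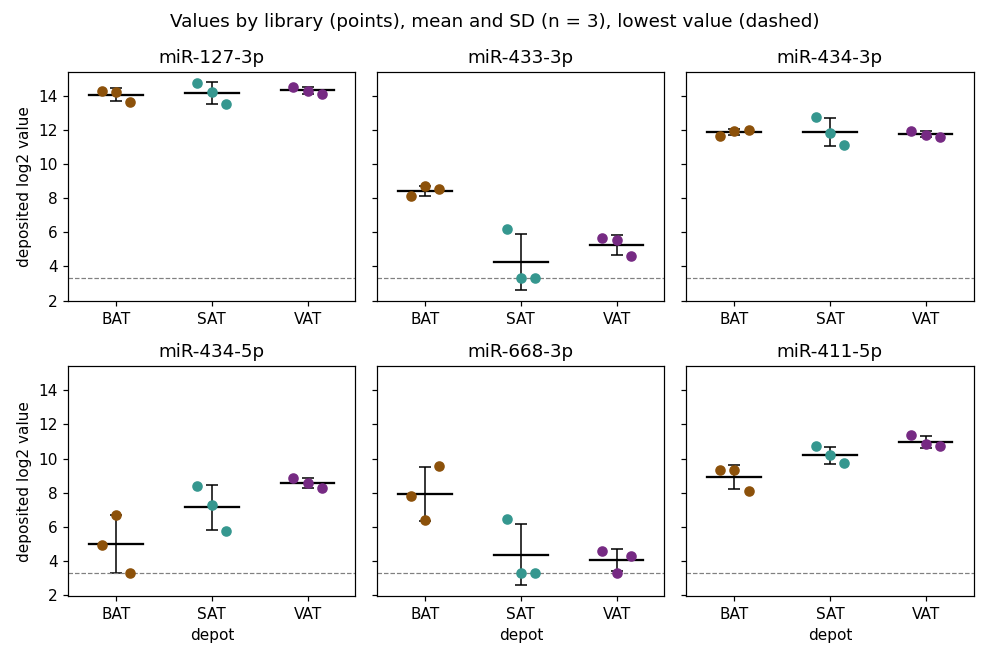
Deposited log2 values (vertical axis) of 6 members in the BAT, SAT and VAT libraries (points), with the mean and SD (bars, n = 3) and the lowest value of the table (dashed). miR-127-3p and miR-434-3p overlap in all depots, miR-433-3p and miR-668-3p are highest in BAT, and miR-434-5p and miR-411-5p are highest in VAT by their means.

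The arms of the miR-434 hairpin differed in their pattern across depots. The log2 value of the 3p arm minus that of the 5p arm was 6.74, 5.22 and 8.68 across BAT, 4.36, 4.53 and 5.32 across SAT and 3.06, 3.15 and 3.33 across VAT. The VAT values were all under the SAT values, and 5.32 in SAT 20 was just above 5.22 in BAT 15, the one overlap. The mean was 6.88 ± 1.73 for BAT, 4.74 ± 0.51 for SAT and 3.18 ± 0.14 for VAT (SD, n = 3 each), where the BAT 20 value is a lower limit as the 5p arm was at the lowest value there. The 3p arm was the more abundant in all 9 libraries, and the mean gap was smaller by 3.70 in VAT than in BAT. These gaps are given as a description, with no test. Of the 49 hairpins with both arms in the table, both arms were tested for 7, 1 arm for 19 and neither for 23.

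Other named members were seen almost from 1 arm alone. The opposite arms of miR-668-3p, miR-300-3p, miR-381-3p, miR-410-3p, miR-673-5p, miR-337-5p, miR-433-3p, miR-341-3p and miR-380-3p were at the lowest value in every library. miR-431-3p was above it only in BAT 12 (4.92) and VAT 14 (3.63), and miR-411-3p only in VAT 14 (4.57) and VAT 17 (3.92). miR-379-5p was seen only in VAT 14 (4.65), although miR-379-3p was seen in all VAT libraries.

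On the Meg3 side of the domain, 3 of 10 members were tested and the calls went both ways. miR-337-5p was 6.34, 5.78 and 3.32 across BAT, 7.73, 6.71 and 5.77 across SAT and 7.64, 7.44 and 7.35 across VAT. All VAT libraries were above all BAT libraries, with a log2 difference of 2.33 (SE 0.77, adjusted p = 0.0377 by limma). This call was lost under 7 of the 17 alternatives, among them without BAT 15 (2.65, adjusted p = 0.0504), VAT 14 (2.25, adjusted p = 0.121), VAT 17 (2.35, adjusted p = 0.104) or VAT 20 (2.39, adjusted p = 0.108). Without BAT 20 the difference was 1.42 and without BAT 12 it was 2.93, and both passed. miR-673-5p was 7.64, 7.70 and 7.44 across BAT, 5.94, 3.32 and 5.60 across SAT and 6.92, 6.10 and 6.19 across VAT. Every BAT library was above every other library, and the log2 difference of VAT from BAT was -1.19 (SE 0.29, adjusted p = 0.0121 by limma). The call was lost under 4 of the 17 alternatives, among them a fit of all 9 libraries, both without a block (adjusted p = 0.129) and with the replicate block (adjusted p = 0.122).

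miR-341-3p, the single tested member of the 7 of the Rian region, was at the lowest value in all BAT libraries. It was 7.47, 6.32 and 5.71 across SAT and 7.03, 7.09 and 6.34 across VAT. Each of these 6 values was above 4.91, the highest of the smallest values that a BAT library showed. Against that value the mean in VAT was at least 3.78-fold higher than in BAT and the mean in SAT at least 3.01-fold higher. The fitted log2 difference, which depends on the lowest value, was 3.50 for VAT over BAT (SE 0.27, adjusted p = 0.000216 by limma) and 3.18 for SAT over BAT (SE 0.48, adjusted p = 0.00624 by limma). The 3 BAT values have no spread, as all are at the lowest value.

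The Mirg region held 76 of the 104 members, of which 23 were tested, with 9 higher and 4 lower in VAT than in BAT. The share higher is close to the 39.4% of all tested miRNAs, and the share lower stands beside 26.8%. Of the 9 higher, miR-379-3p, miR-299a-5p, miR-299b-5p and miR-409-5p passed the filter through VAT values alone, which fixed their direction. That of miR-329-5p was fixed as well, since it had no BAT value above the lowest. The values of miR-299a-5p and miR-299b-5p were also identical, so nothing is read from these shares. miR-411-5p was 9.35, 9.31 and 8.09 across BAT, 10.70, 10.18 and 9.71 across SAT and 11.38, 10.82 and 10.74 across VAT. All BAT libraries were under all SAT and VAT libraries. The log2 difference from BAT was 2.07 in VAT (SE 0.42, adjusted p = 0.00563 by limma) and 1.28 in SAT (SE 0.46, adjusted p = 0.0866 by limma), which did not pass the test.

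The pair miR-300-3p and miR-381-3p, with their like sequences, had the same order of depots. miR-300-3p was 5.94, 5.61 and 4.91 across BAT, 7.41, 6.32 and 7.24 across SAT and 7.91, 7.75 and 7.57 across VAT. miR-381-3p was 7.05, 7.53 and 6.87 across BAT, 8.74, 8.29 and 8.19 across SAT and 9.31, 8.98 and 8.56 across VAT. For both, all BAT libraries were under all SAT and VAT libraries. In VAT they were higher than in BAT by 2.26 (SE 0.32, adjusted p = 0.00144 by limma) and 1.80 (SE 0.30, adjusted p = 0.00277 by limma), and each passed under all 17 alternatives. The authors split reads with more than one place in proportion, and whether this touched the pair was not tested.

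miR-668-3p was the Mirg member that fell most from BAT to VAT. It was 7.83, 6.40 and 9.57 across BAT, 6.43, 3.32 and 3.32 across SAT and 4.57, 3.32 and 4.26 across VAT. All BAT libraries were above all VAT libraries, while SAT 14 was just above BAT 15. The log2 difference was -3.88 for VAT from BAT (SE 0.82, adjusted p = 0.0068 by limma) and -3.57 for SAT from BAT (SE 1.27, adjusted p = 0.0834 by limma). The SAT/BAT difference did not pass under 12 of the 17 alternatives, and passed, among others, without SAT 14 (-4.61, adjusted p = 0.046) and in a fit of all 9 libraries (-3.57, adjusted p = 0.0184). In VAT/BAT the difference was -3.06 without BAT 20 and -4.65 without BAT 15, and passed both times. In BAT its highest library, BAT 20, was also highest in the sum of skeletal muscle markers, at 18.68. BAT 15 had a sum of 17.21 and the lowest miR-668-3p of BAT, while BAT 12 had a sum of 10.14 and a higher miR-668-3p. VAT 20 had a sum of 17.21 and a miR-668-3p under that of VAT 14, where the sum was 9.90. The part of muscle tissue in these values was not tested.

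The neighbours of miR-668 were looked at after their values were seen. miR-134-5p, from a hairpin that starts 593 bases before that of miR-668 and known in neurons for its effect on dendritic spines, was 5.26, 3.32 and 4.91 across BAT and 6.34, 6.10 and 5.72 across VAT. It was higher in VAT by 1.56 (SE 0.54, adjusted p = 0.0409 by limma), and the difference was 0.97 without BAT 15. This call was lost under 9 of the 17 alternatives, among them without VAT 14, VAT 17 or VAT 20 (adjusted p 0.0895 to 0.136). miR-485-3p, from a hairpin that starts 170 bases after that of miR-668, was 7.91, 7.14 and 7.87 across BAT and 6.68, 6.27 and 5.72 across VAT, lower by 1.42 (log2 difference -1.42, SE 0.36, adjusted p = 0.0136 by limma). The libraries of BAT and VAT did not overlap for either. miR-668-3p minus miR-134-5p was 3.44 ± 1.09 for BAT, -1.70 ± 2.65 for SAT and -2.004 ± 0.69 for VAT on the log2 scale (SD, n = 3 each), which is a description of adjacent hairpins with no test. The gaps of SAT 19, SAT 20 and VAT 17, with miR-668-3p at the lowest value, and of BAT 15, with miR-134-5p there, are limits. The other Mirg members lower in VAT, miR-485-5p and miR-154-5p, differed from BAT by -1.59 (SE 0.51, adjusted p = 0.0344 by limma) and -1.43 (SE 0.44, adjusted p = 0.0289 by limma). The call of miR-485-5p was lost under 12 of the 17 alternatives, among them without BAT 15, BAT 20, VAT 17 or VAT 20 (adjusted p 0.0513 to 0.108). That of miR-154-5p was lost under 8 of the 17, among them when any library but BAT 20 was left out (adjusted p 0.0719 to 0.0985).

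**Figure D3:**
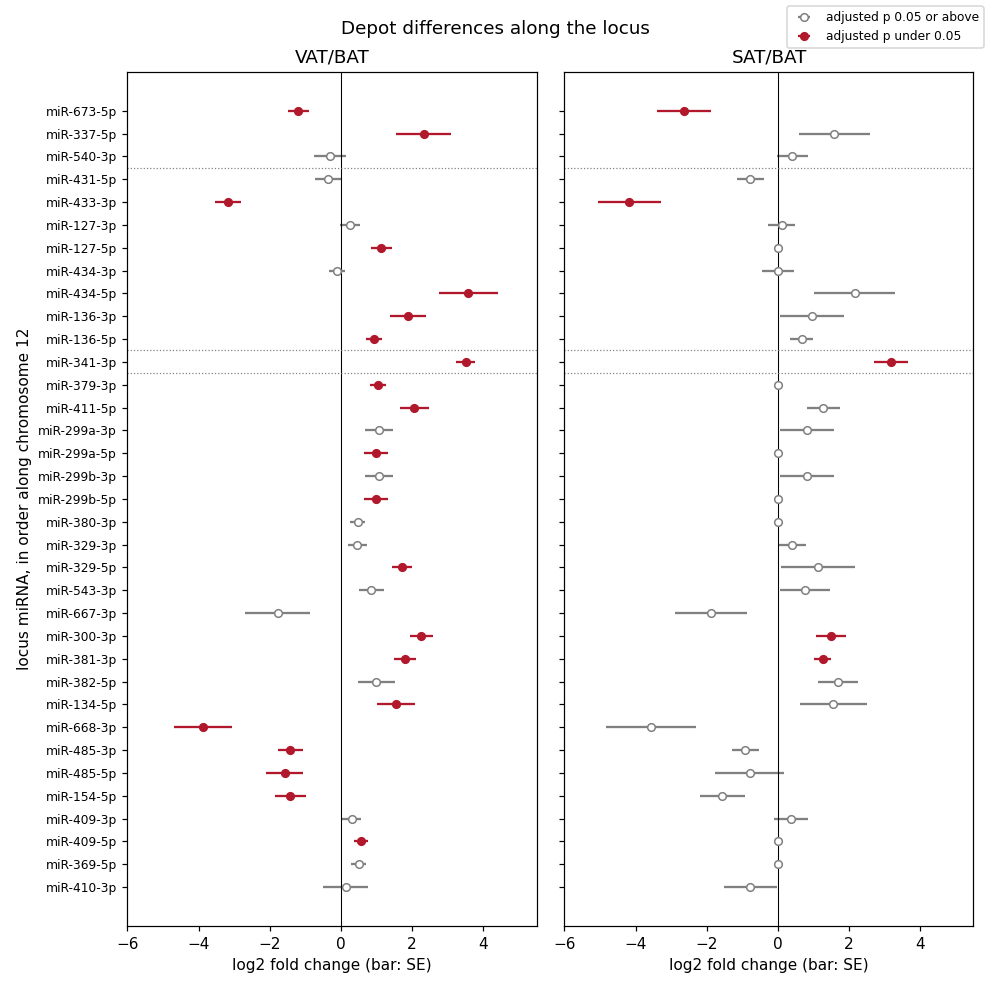
Log2 fold change (horizontal axis, bars are the SE) of the 35 tested members in chromosome order (vertical axis) for VAT/BAT (left) and SAT/BAT (right), with filled points for an adjusted p under 0.05 and dotted lines between the Meg3 side, the members antisense to Rtl1, the Rian region and the Mirg region. Filled points to the left and right of 0 occur on the Meg3 side, antisense to Rtl1 and in the Mirg region for VAT/BAT, and 5 points are filled for SAT/BAT.

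SAT and BAT differed in 5 of the 35 members (14.3%), where 40.5% of all tested miRNAs passed. In SAT 3 members were higher (8.57%, against 22.4% of all tested) and 2 were lower (5.71%, against 18.1%). The members' share was thus under that of the table, and 7 of the 35 were at the lowest value in every SAT and BAT library and could not differ. The median log2 difference was 0.11 over the members and 0.26 over all tested miRNAs. At an unadjusted p under 0.05 there were 8 members. With the lowest value subtracted and 1 added, 2 members were higher and none was lower, beside 65 higher and 54 lower of all tested miRNAs. This comparison and VAT/BAT share the 3 BAT libraries.

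The members higher in SAT than in BAT were miR-341-3p, with the values given above, miR-300-3p by 1.5002 (SE 0.42, adjusted p = 0.0466 by limma) and miR-381-3p by 1.26 (SE 0.25, adjusted p = 0.0141 by limma). The call of miR-341-3p was lost with low values raised to 5.20 (log2 difference 1.29, adjusted p = 0.0801) and with no filter (adjusted p = 0.0532). The call of miR-300-3p was lost under 9 of the 17 alternatives, among them without BAT 12, BAT 15, BAT 20, SAT 14 or SAT 20 (adjusted p 0.0629 to 0.135). The call of miR-381-3p was lost under 3 of the 17, among them without BAT 12 (1.21, adjusted p = 0.0522). The members lower in SAT were miR-433-3p, with a log2 difference of -4.18 (SE 0.88, adjusted p = 0.0189 by limma), and miR-673-5p, with -2.64 (SE 0.76, adjusted p = 0.0477 by limma). The call of miR-433-3p was lost under 7 of the 17 alternatives. Among them were those with BAT 12, BAT 15, BAT 20, SAT 19 or SAT 20 left out (adjusted p 0.0534 to 0.0671), with differences of -4.34 to -3.70. Without SAT 14 the difference was -5.12. The call of miR-673-5p was lost under 9 of the 17, among them when any library but SAT 19 was left out (adjusted p 0.0542 to 0.122). Without SAT 19 the difference was -1.82. With BAT 20 and SAT 14 both left out, 1 member was higher and 4 were lower, beside 65 higher and 61 lower of all 343 tested miRNAs. The balance of directions among the few called members thus changed with these libraries.

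VAT and SAT differed in 4 of the 35 members (11.4%), where 16.0% of all tested miRNAs passed. All 4 were higher in VAT (11.4%, against 8.45% of all tested), and none was lower (7.58% of all tested). They were miR-127-5p, miR-379-3p, miR-409-5p and miR-380-3p, which were at the lowest value in every SAT and BAT library. They were tested through their VAT values alone, which fixed their direction, so nothing is read from these shares. miR-127-5p was 4.16, 4.97 and 4.26 across VAT and miR-379-3p was 4.31, 4.64 and 4.13. miR-409-5p was 3.83, 3.92 and 3.92 and miR-380-3p was 3.83, 3.92 and 3.63. All of these are under 5.20, the smallest value above the lowest in SAT 19, so no fold is given, and none of the 4 could be tested with low values raised to 5.20.

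The adjusted p for VAT over SAT was 0.0396 for miR-127-5p, 0.0235 for miR-379-3p, 0.0235 for miR-409-5p and 0.0446 for miR-380-3p, by limma with Benjamini-Hochberg adjustment. Without SAT 19, SAT 20 or VAT 20 in turn, none of the 35 members passed in VAT/SAT, with 6, 5 and 8 members at an unadjusted p under 0.05. Of all 343 tested miRNAs, 0, 12 and 5 passed in these fits, so the loss was one of the whole table. With low values raised to 5.20 none of 26 passed and none had an unadjusted p under 0.05. All 4 calls in VAT/SAT thus rested on values under the smallest one that SAT 19 showed above the lowest.

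**Figure D4:**
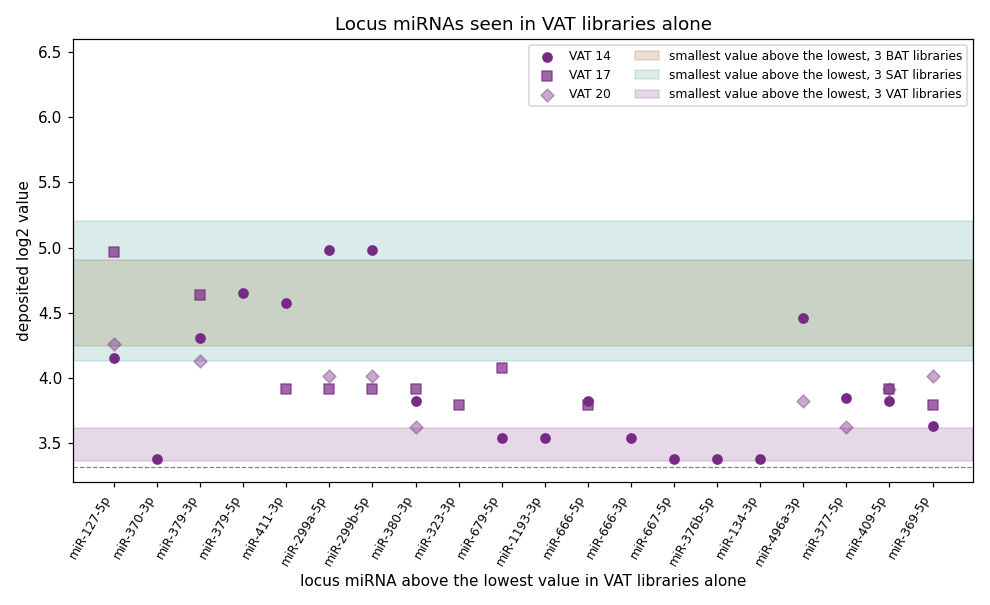
Deposited log2 values (vertical axis) of the 20 members seen in VAT libraries alone (horizontal axis), with a symbol for each VAT library, bands from the lowest to the highest of the smallest values above the lowest in the 3 libraries of each depot, and the lowest value of the table (dashed). Most symbols lie below the upper edge of the BAT band at 4.91, and the highest is at 4.98.

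In all, 20 members were above the lowest value in VAT libraries alone, with 39 of their 60 VAT values above it. Only 3 of these values were above 4.91, and the highest was 4.98. Of the 20, 7 had a value in all VAT libraries and were tested, and VAT 14, the library with the most members seen, gave the only value for 7 of the others. Of the 15 members higher in VAT than in BAT, 5 belong to these 20, and their direction was fixed by the filter in the same way. Of the rest, miR-136-5p, miR-329-5p and miR-341-3p had no BAT value above the lowest, so against BAT they could only come out higher.

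Of the miRNAs that mark cell types, 4 of the 5 of fibroblasts and mesenchymal cells were lower in every BAT library than in every SAT and VAT library, as were miR-341-3p, miR-411-5p, miR-300-3p and miR-381-3p. The fifth, miR-214-3p, overlapped, at 10.53 to 10.56 for BAT, 10.43 to 10.82 for SAT and 9.93 to 10.79 for VAT. The endothelial markers miR-126-3p and miR-126-5p and the myeloid marker miR-223-3p were also lower in every BAT library, so this pattern was not particular to mesenchymal markers. Of all tested miRNAs, 39.4% were called higher in VAT than in BAT and 22.4% higher in SAT than in BAT. All 5 (miR-199a, miR-199b and miR-214 strands) were seen in every library, and the log2 of their sum was 11.25 to 11.59 for BAT, 12.83 to 13.03 for SAT and 13.43 to 13.71 for VAT. The sum of the brown fat markers, 3 or 4 of 4 seen in each library, was 17.34 to 18.82 for BAT, 15.16 to 15.23 for SAT and 15.66 to 16.26 for VAT, although miR-365-3p in BAT 20 (11.05) was within the range of the other depots. This sum was highest in the BAT libraries, as were miR-433-3p and miR-673-5p, while miR-668-3p overlapped between BAT and SAT. Within BAT the orders differed. BAT 20 had the lowest sum and the highest miR-668-3p, and BAT 12 the highest sum and the lowest miR-433-3p. Neuronal markers, 2 to 4 of 6 seen in a library, had a sum of 9.55 to 10.67 for BAT, 8.59 to 8.76 for SAT and 8.95 to 9.37 for VAT. Of these, miR-124-3p and miR-137-3p were at the lowest value in all 9 libraries, and miR-9-5p was above it only in VAT 14 (4.98) and VAT 20 (4.13). The higher BAT sum came from miR-128-3p and miR-129-5p, while miR-138-5p was 3.32, 5.92 and 3.32 across BAT and higher in every SAT and VAT library. The myeloid sum was 4.91 in BAT, where none of 3 was seen, 9.24 to 9.45 for SAT and 9.98 to 10.51 for VAT, and the endothelial sum was 11.53 to 12.23 for BAT, 13.28 to 13.61 for SAT and 13.54 to 13.64 for VAT, with 2 of 2 seen in each library. The part of these cell types in the differences of the members was not tested.

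Single libraries stood apart in markers of other tissues. The skeletal muscle sum, of 4 markers, was 10.14 in BAT 12, 17.21 in BAT 15 and 18.68 in BAT 20, 9.90 to 10.81 for SAT, and 9.90 in VAT 14, 12.60 in VAT 17 and 17.21 in VAT 20. The epithelial sum, of 6 markers, was 14.35 in SAT 14 with all 6 seen, against 6.62 and 7.12 in the other SAT libraries, 5.91 in BAT with none seen, and 6.06 to 10.29 for VAT. The lymphoid sum, where 1 of 2 markers was at the lowest value everywhere, was 16.72 in SAT 20 and 12.51 to 14.75 in the other 8 libraries. Without BAT 20 and VAT 20, 14 members differed between VAT and BAT, 10 higher and 4 lower, beside 118 higher and 92 lower of all 343 tested miRNAs. Without VAT 20 and SAT 14, 1 member and 11 of all tested miRNAs differed between VAT and SAT. Among the 35 members, SAT 14 was the highest SAT library for 22, VAT 14 the highest VAT library for 25 and VAT 20 the lowest VAT library for 22.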

How the data were processed

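The deposited log2 values of mature miRNAs were used as given. According to their methods, the authors aligned the reads to hairpins of miRBase, counted those that fell on a mature miRNA, split reads with more than one place in proportion, scaled by a library's usable reads and added 40 counts (build mm10 in the submitters' notes). The lowest deposited value is 10 before log2, which does not match 40 counts, and differences of members near the lowest value depend on this constant. How log2 was taken, and why values at the same rank are alike between libraries, is not given in the sources used here. The lowest value stands for no or few reads, so depth and counting error are unknown.

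miRNAs above the lowest value in 3 or more of 9 libraries were tested (343). Each pair of depots was fitted on its 6 libraries with limma 3.58.1 (lmFit, eBayes) in R 4.3.3, two-sided, and p-values were adjusted by Benjamini-Hochberg over these 343. limma was used in place of the unmoderated test of the paper, which was run as an alternative. The fit was tested on simulated data. Positions came from GENCODE M21 and RefSeq on GRCm38. Tables were handled with Python 3.11.15.

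Members given with all values were the 8 with the highest mean, the 5 with the largest called difference without overlap per comparison, and their other arms. Others were chosen after their values were seen. The members and lists were chosen with earlier results of these data known. Numbers in the titles were not stated to be mice. The main fits used no block, as the paper compared the depots in pairs and named no covariate. The deviations of libraries with the same number had correlations of -0.139 to 0.27, beside -0.48 to 0.358 for libraries of different depots and numbers. These few pairs cannot show whether libraries with the same number are independent.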

Additional observations from a re-analysis of the deposited data

How the results depend on the processing

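No call of a named member changed direction under an alternative. The 21 members called in VAT/BAT became 8 with no filter (20 at an unadjusted p under 0.05) and 11 with low values raised to a common limit, which was added after seeing the data. They became 23 with the lowest value subtracted and 1 added, 14 with a further 40 added and 14 with a filter at 6 libraries. After quantile normalization there were 15, in the fit of all 9 libraries 17, without moderation 16, and with 1 library left out 15 to 19. The 5 in SAT/BAT became 2 with the lowest value subtracted and 1 added, 0 with no filter (6 at an unadjusted p under 0.05 by limma), 9 in a fit of all 9 libraries, 3 without moderation, 8 at the thresholds of the paper and 1 to 5 with 1 library left out (1 without BAT 12). The 4 in VAT/SAT became 7 with the lowest value subtracted, 0 with a further 40 added (3 at an unadjusted p under 0.05 by limma), 1 with no filter, 0 with a filter at 6 libraries or after quantile normalization (0 at an unadjusted p under 0.05 by limma in both), 2 in the fit of all 9 libraries, 2 without moderation, 7 at the thresholds of the paper, 1 without VAT 20 and SAT 14, which was added after seeing the data, 0 with the common limit and 0 to 3 with 1 library left out. With the replicate block by library number, 4 members passed in VAT/SAT, and 18 in VAT/BAT and 9 in SAT/BAT in a fit of all 9 libraries. For named members, called or not, 286 of 316 log2 differences in VAT/BAT kept their side of the threshold, as did 272 of 312 in SAT/BAT and 277 of 316 in VAT/SAT. These totals include members at the lowest value in both depots, which could not change side, so they do not measure how stable the calls were. In VAT/SAT the call of miR-127-5p was lost under 10 of 15 alternatives in which it was tested. That of miR-379-3p was lost under 8 of 15, miR-409-5p under 7 of 15 and miR-380-3p under 13 of 15. Where a value changed, the cause was not tested. The unknown depth and the higher smallest values of BAT and SAT limit what can be said of members near the lowest value.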

Other observations

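Other miRNAs of imprinted loci were set beside the Dlk1-Dio3 members. The 11 miRNAs of the domain that the list of numbers left out (miR-493, miR-1906 and miR-3070 to miR-3072) were at the lowest value in every library. miR-335-3p, from an intron of the imprinted gene Mest, a marker of adipose tissue expansion, was 3.32, 5.92 and 5.28 across BAT, 11.51, 10.87 and 11.05 across SAT and 10.53, 10.38 and 10.70 across VAT. All SAT and VAT libraries were above all BAT libraries, with a log2 difference of 5.70 for VAT over BAT (adjusted p = 0.000621 by limma). miR-335-5p was at the lowest value in BAT, 8.18, 8.50 and 8.68 across SAT and 5.96, 5.67 and 6.34 across VAT, so that SAT lay above VAT without overlap.

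At the Gnas locus, miR-298-5p was 3.32, 3.32 and 4.91 across BAT, 9.45, 8.17 and 9.57 across SAT and 8.25, 7.83 and 8.04 across VAT, higher in VAT than in BAT by 4.19 (adjusted p = 0.000596 by limma). miR-296-5p from the same locus was 5.26, 4.92 and 6.10 across BAT, 6.16, 6.32 and 5.94 across SAT and 4.98, 4.21 and 4.68 across VAT, a log2 difference of -0.80 from BAT to VAT that did not pass the test (adjusted p = 0.111 by limma). At Igf2, miR-483-3p was seen only in BAT 15 (4.66) and BAT 20 (6.10), and neither arm of miR-675 of H19 was seen in any library. In BAT, the 2 libraries with miR-483-3p are also those with a high sum of skeletal muscle markers. In VAT 20, with a sum of 17.21, miR-483-3p was at the lowest value. The part of muscle tissue in the values of miR-483-3p was not tested.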
